A study of Homo sapiens with 75 samples.

Results

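The MHC class I antigen processing genes described here are 10 genes, B2M, HLA-E, HLA-F, TAP1, TAP2, TAPBP, PSMB8, PSMB9, PSMB10 and NLRC5. They were taken by symbol, as every probe set annotated to 1 of these genes alone. They are 10 of 19775 genes with a probe set of their own, and all 10 are among the 13870 genes that passed a filter on low intensity. Together they have 21 probe sets, all past the filter: 4 for TAP2, 3 each for B2M, HLA-E, HLA-F and TAPBP, and 1 each for the others. For each gene the probe set with the highest mean was used.

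Transcript levels were read on 75 Affymetrix arrays from 5 established lines of mantle cell lymphoma, a B cell tumour: REC-1, JEKO-1, HBL-2, GRANTA-519 and Z138. Each line has 5 groups of 3 arrays: GA101 (obinutuzumab, a glycoengineered antibody against CD20), rituximab (an older antibody against CD20), the combination of the 2 antibodies, an isotype control antibody, and PBS, a salt buffer. The antibodies against CD20 were given at 10 µg/ml each, in the combination too, and neither a dose of the isotype antibody nor a treatment time is in the labels. All groups were grown in a medium with fetal bovine serum. The title of the series concerns how the antibodies differ in the genes they regulate. Nothing in the labels says that replicates were separate cultures, so p-values reflect only how far the arrays of a group spread, and that spread may be technical. In bulk RNA, fewer cells of a kind and less RNA per cell cannot be told apart.

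Class I molecules show peptides from inside the cell to CD8 T cells and natural killer cells. Proteins are cut by the proteasome, whose catalytic subunits PSMB5, PSMB6 and PSMB7 can be replaced by the immunoproteasome subunits PSMB8, PSMB9 and PSMB10. TAP1 and TAP2 form the transporter that carries peptides into the endoplasmic reticulum, where tapasin (TAPBP) helps to load them onto a heavy chain paired with beta-2 microglobulin (B2M). HLA-E is the ligand of the CD94/NKG2 receptors of natural killer cells, and HLA-F is a less polymorphic class I heavy chain. NLRC5 is the transactivator that drives class I genes, and interferons raise many members of the pathway.

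Median intensity per array was 11.06 to 17.42 and the highest value 8699 to 11670, and the number of arrays limits the precision. All 5 measured B cell markers were above the median probe set in each line, and all 4 measured natural killer cell markers were below it. Of the mantle cell lymphoma markers, CCND1 and SOX11 were above the median in each line, while CD5 was above it in REC-1 and below it in the other 4. Summed intensity over the mantle cell markers was 761.8 to 2038 in HBL-2 and 5030 to 6910 in the other lines. Markers of other cell types were above the median probe set in part: 4 of 6 T cell markers in REC-1 (0 to 2 in the other lines), 2 to 4 of 6 myeloid markers, 1 of 2 erythroid markers and 3 to 5 of 6 epithelial and fibroblast markers. Over all arrays the summed intensity was 6539 to 13550 for B cell markers, 17.1 to 140.7 for T cell, 8.24 to 39.2 for natural killer cell, 32.3 to 173 for myeloid, 23.5 to 65.7 for erythroid and 77.7 to 219 for epithelial and fibroblast markers. The T cell sum in REC-1, the line lowest in 5 of the 10 genes, was 100.2 to 140.7, and the part of these markers in the results was not tested. On single arrays B2M reached 64.14% to 86.57% of the array's maximum, so that it was close to the top of the scale. Levels are compared within a probe set, between groups, and not between probe sets.

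Promoter sequence was taken from RefSeq on GRCh38.p14, and 8 of the 10 members matched, with 10 windows of 300 bases that run from 250 before to 50 after an annotated start. A short form of the interferon-stimulated response element, GAAA then any 2 bases then GAAA, was searched on both strands. It was in the windows of 7 of the 8 matched members (all but PSMB9), which is 7 of 10 windows, and in 3.57% of 35116 promoters. The share over all promoters counts single windows, so the count of windows is the like measure. The sequences of 5 members with different patterns in the results are shown: HLA-F was low in 1 line, B2M was nearly level, TAP1 rose with antibody, TAP2 differed in its response between lines, and PSMB10 was not low in REC-1. Each sequence is the 250 bases before the start, 5′ to 3′ on the gene's strand, and capitals mark the matched letters, with overlapping matches run together.
HLA-F, chr6:29723184-29723433, plus strand: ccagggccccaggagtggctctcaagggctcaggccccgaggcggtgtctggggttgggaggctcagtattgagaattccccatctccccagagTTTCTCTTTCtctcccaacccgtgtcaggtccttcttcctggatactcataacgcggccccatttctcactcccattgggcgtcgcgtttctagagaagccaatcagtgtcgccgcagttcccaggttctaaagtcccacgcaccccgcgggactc
B2M, chr15:44711267-44711516, plus strand: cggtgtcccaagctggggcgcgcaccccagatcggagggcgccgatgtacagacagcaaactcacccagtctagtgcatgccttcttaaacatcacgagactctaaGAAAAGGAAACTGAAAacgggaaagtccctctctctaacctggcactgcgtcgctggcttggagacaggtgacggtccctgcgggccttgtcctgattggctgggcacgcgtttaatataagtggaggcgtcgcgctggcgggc
TAP1, chr6:32853705-32853954, minus strand: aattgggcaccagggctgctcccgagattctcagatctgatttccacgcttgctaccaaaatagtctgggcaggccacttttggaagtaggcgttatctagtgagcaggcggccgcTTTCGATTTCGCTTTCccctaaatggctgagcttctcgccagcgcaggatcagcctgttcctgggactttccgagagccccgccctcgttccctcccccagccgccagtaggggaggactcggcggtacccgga
TAP2, chr6:32838740-32838989, minus strand: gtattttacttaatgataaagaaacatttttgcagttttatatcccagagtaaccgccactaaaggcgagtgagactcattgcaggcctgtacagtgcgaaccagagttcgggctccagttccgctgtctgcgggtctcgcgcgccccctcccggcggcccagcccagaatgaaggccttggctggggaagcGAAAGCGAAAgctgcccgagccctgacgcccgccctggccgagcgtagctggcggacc
PSMB10, chr16:67936851-67937100, minus strand: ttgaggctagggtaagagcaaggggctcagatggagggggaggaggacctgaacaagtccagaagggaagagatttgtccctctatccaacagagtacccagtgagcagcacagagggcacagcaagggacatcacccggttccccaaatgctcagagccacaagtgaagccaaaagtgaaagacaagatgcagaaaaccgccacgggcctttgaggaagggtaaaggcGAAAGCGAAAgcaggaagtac
B2M and TAP1 each held 2 overlapping matches, and TAPBP held 2 as well. The farther match of B2M began 144 bases before the start, that of HLA-F 156, the matches of TAP1 134 and 128, that of TAP2 58 and that of PSMB10 21. The start of TAP1 shown here lies 488 bases from that of PSMB9, on the opposite strand, and their windows share 13 bases. The TAP1 matches lie between these 2 starts, outside the PSMB9 window. The letters CCAAT were found in 4 of the 8 members and 4 of 10 windows, against 34.6% of all promoters, and so near that share. TGACG was also in 4 members and 4 of 10 windows, against 24.6%. GGG then any 2 bases then TTTCC, a form of the NF-kB site, was in 3 of 8 members and 3 of 10 windows, against 1.91%. TTC then any 3 bases then GAA, a form of the gamma-activated site, was in 2 members and 2 of 10 windows, against 7.66%. A match describes the letters and is not a binding site.

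The largest differences in these genes lay between the lines. In the 6 control arrays of each line (3 isotype and 3 PBS), a moderated F test (limma, Benjamini-Hochberg over all genes) found a difference between lines for 10 of 10 members, with adjusted p from 3.3e-49 to 3.5e-07. The background for that test was 86.8% of genes, so the count is close to what genes in general gave. The direction was less general. REC-1 was lower than each of the other 4 lines for HLA-E, HLA-F, PSMB8, PSMB9 and NLRC5, which is 5 of 10 members against 11.3% of all genes. GRANTA-519 was higher than each of the other 4 lines for HLA-E, HLA-F, TAP1, TAP2, TAPBP, PSMB8 and PSMB9, which is 7 of 10 members against 11.9% of all genes. No test of the whole list was made. The members were chosen with earlier results of these data known, and the HLA-E and HLA-F probe sets may share signal. The shares are therefore a description.

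The heavy chain genes HLA-E and HLA-F differed most. HLA-E intensity over all 15 arrays of REC-1 was 54.4 at the lowest, 67.3 at the median and 85.9 at the highest. In GRANTA-519 it was 2311, 2497 and 2761, and in the other 3 lines the medians were 951 (Z138), 895 (JEKO-1) and 850.3 (HBL-2). No array of REC-1 came near any array of another line. In controls the mean was 71.8 ± 11.8 in REC-1 (SD, n = 6) and 2518 ± 136 in GRANTA-519 (SD, n = 6), a 35.4-fold difference (log2 difference 5.15 ± 0.0852 SE, adjusted p = 7.6e-50, limma). Against JEKO-1, the next line up, it was 11.6-fold (adjusted p = 1.9e-41, limma). Z138 (907), HBL-2 (849) and JEKO-1 (827) formed a middle group in which neighbours did not differ, with adjusted p of 0.31 and 0.76 (limma). With the mean of each gene's probe sets, HBL-2 and JEKO-1 did differ (adjusted p = 0.019, limma).

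HLA-F had the same outer lines. Its intensity in REC-1 was 30.4 at the lowest, 52.5 at the median and 77.7 at the highest of 15 arrays, while in GRANTA-519 it was 2166, 2352 and 2450. The control means were 51.9 ± 9.75 and 2330 ± 67.1 (SD, n = 6 each), a 45.5-fold difference (log2 difference 5.51 ± 0.0969 SE, adjusted p = 1.5e-48, limma). From high to low the order was GRANTA-519, then Z138, then HBL-2, then JEKO-1, then REC-1. All neighbours in it differed, the closest by 1.2-fold (HBL-2 over JEKO-1, adjusted p = 0.017, limma). That closest call was lost without the first isotype array of HBL-2 (adjusted p = 0.053) and with the mean of probe sets (0.26, limma).

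The probe sets used for HLA-E and HLA-F have the suffix x_at, which marks probes that can also bind related sequences, and class I heavy chain genes are near-identical in parts. The identity of their signal is therefore uncertain. The probe sets without that suffix gave the same low line. HLA-E probe set 200904_at read 0.96, 1.97 and 6.96 in REC-1 (lowest, median and highest of 15 arrays), against 395 to 530.5 in GRANTA-519 and 131 to 282 in the other 3 lines. HLA-F probe set 221978_at read 0 to 7.07 in REC-1 and 14 to 114 elsewhere. All 15 REC-1 arrays were under the filter intensity of 11.7 on each of these 2 probe sets, a level at which values have little meaning in order.

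Other genes of the pathway came from a list, of which 31 were tested. Of the 31, 10 were lower in REC-1 than in each other line and 6 were higher in GRANTA-519 than in each other line, set against the same 11.3% and 11.9% of all genes. The heavy chain genes that are not members were among both. Control means of HLA-B were 388 ± 38.5 in REC-1 and 4288 to 5198 in the other lines, those of HLA-C were 554 ± 61.4 against 3843 to 5186, and those of HLA-G were 66.2 ± 15.4 against 1516 to 3132 (SD, n = 6). All 3 were lower in REC-1 than in each other line. HLA-B was 12.2-fold and HLA-C 6.96-fold higher in JEKO-1 than in REC-1. The same caution on shared sequence applies to these genes.

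B2M, the light chain of the complex, was nearly level over the lines. Its control means were 6768 ± 343 in REC-1, 7033 ± 426 in JEKO-1, 7646 ± 465 in HBL-2, 7842 ± 626 in GRANTA-519 and 8087 ± 330.1 in Z138 (SD, n = 6 each). From highest to lowest that is 1.2-fold, a range wider than that of 1.2% of all genes. The F test between lines was past the threshold (adjusted p = 3.5e-07, limma), yet of the neighbours in the order only HBL-2 and JEKO-1 differed (adjusted p = 0.013, limma). That call was lost without the second isotype array of HBL-2 (adjusted p = 0.052), without the third PBS array of JEKO-1 (0.096) and with the mean of probe sets (0.75, limma). With quantile normalization the order itself moved: GRANTA-519 was above Z138 (log2 difference -0.0757 for Z138 minus GRANTA-519, adjusted p = 0.00028, limma). JEKO-1 stayed above REC-1, and that difference then passed (adjusted p = 3.2e-08, limma). In REC-1, then, the B2M probe set read 0.837 of its Z138 level while the HLA-E probe set read 0.0785 of its own. B2M read close to the top of the scale, and the part of that in its narrow range was not tested.

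**Figure D1:**
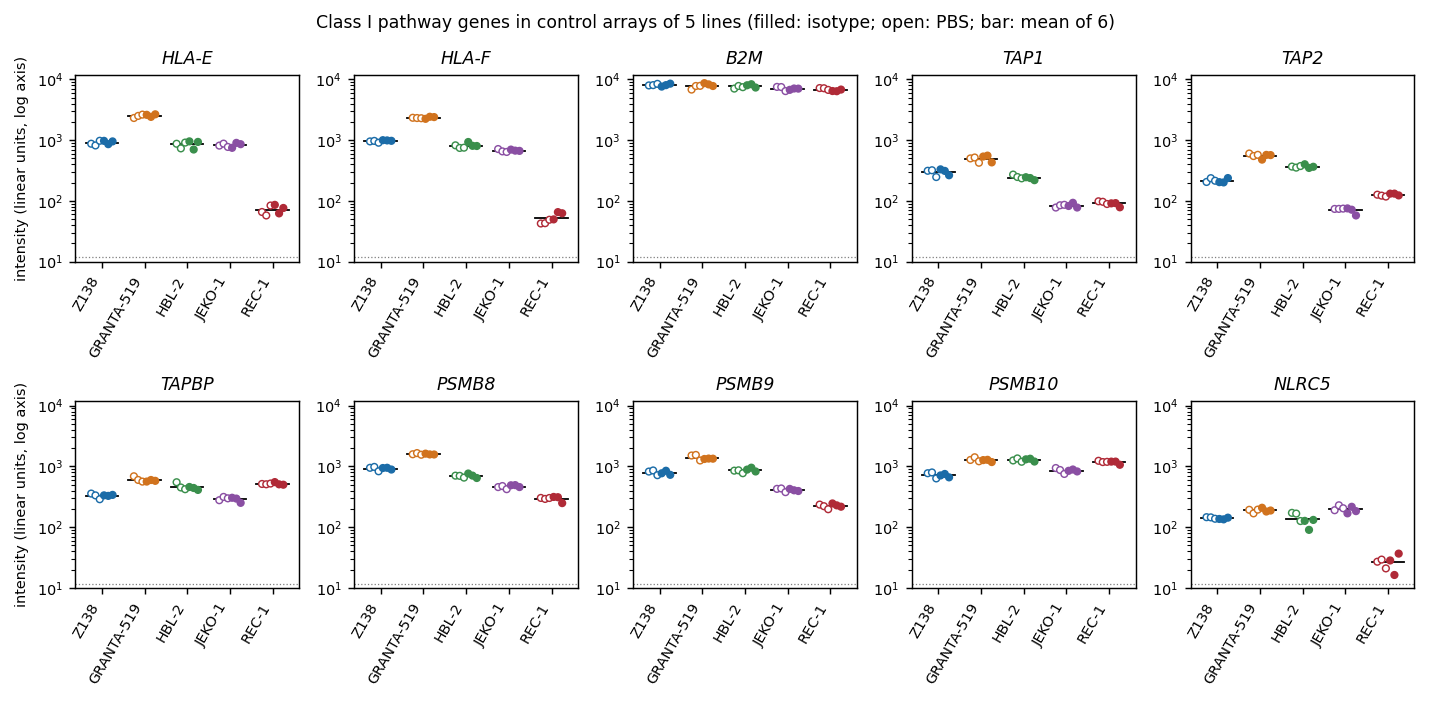
Intensity of the 10 genes (linear units on a log axis) on the 6 control arrays of each line; filled points are isotype arrays, open points PBS arrays, the bar is the mean of 6 and the dotted line the filter intensity. HLA-E, HLA-F and NLRC5 drop in REC-1, to means of 71.8, 51.9 and 26.4, while B2M stays between 6768 and 8087.

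NLRC5, the transactivator, was also low in REC-1. Its intensity there was 15.4 at the lowest, 27.0 at the median and 36.7 at the highest of 15 arrays, and 90.2 or more on every array of the other lines. Control means were 26.4 ± 7.06 in REC-1, 136 ± 30.2 in HBL-2, 140.3 ± 4.86 in Z138, 189 ± 13.5 in GRANTA-519 and 199 ± 22.2 in JEKO-1 (SD, n = 6 each). JEKO-1 was 7.73-fold above REC-1 (log2 difference 2.95 ± 0.121 SE, adjusted p = 4.3e-30, limma). JEKO-1 did not differ from GRANTA-519 (adjusted p = 0.64), nor Z138 from HBL-2 (adjusted p = 0.58, limma).

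The immunoproteasome subunits PSMB8 and PSMB9 followed the same outer lines on a smaller scale, and PSMB10 did not. PSMB8 control means were 295 ± 24.0 in REC-1, 465 ± 26 in JEKO-1, 695 ± 42.6 in HBL-2, 923 ± 53.9 in Z138 and 1593 ± 37.7 in GRANTA-519 (SD, n = 6 each), and all neighbours differed. From top to bottom this is 5.42-fold (adjusted p = 2e-44, limma). PSMB9 ran from 1386 ± 115 in GRANTA-519 to 224 ± 16.6 in REC-1, which is 6.18-fold (adjusted p = 2.8e-42, limma), and HBL-2 (858) and Z138 (790) did not differ (adjusted p = 0.086, limma), although they did in 3 fits that each left out 1 control array (the second isotype array or the second PBS array of Z138, or the third isotype array of HBL-2, adjusted p of 0.041 to 0.048, limma). PSMB10 stood at 1274 ± 68.8 in HBL-2, 1272 ± 80.2 in GRANTA-519 and 1177 ± 59.3 in REC-1, 3 lines in which neighbours did not differ, and at 854 ± 63.7 in JEKO-1 and 720.2 ± 63.7 in Z138 (SD, n = 6 each). Its highest line was 1.77-fold above its lowest. GRANTA-519 and REC-1 differed without the third PBS array of GRANTA-519 (adjusted p = 0.041), and HBL-2 and REC-1 without the third isotype array (0.043) or the third PBS array (0.047, limma) of HBL-2.

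The subunits that PSMB8, PSMB9 and PSMB10 replace did not share the order. PSMB5, PSMB6 and PSMB7 are not members. PSMB5 control means were 535.5 to 1690, with GRANTA-519 lowest. PSMB6 means were 861 to 1609, with Z138 highest and REC-1 (1460) next to it. PSMB7 means were 2182 to 3082, with REC-1 lowest, but REC-1 and Z138 did not differ (adjusted p = 0.06, limma).

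The transporter genes divided the lines another way, since JEKO-1 was as low as REC-1 or lower. TAP1 control means were 494 ± 55.0 in GRANTA-519, 297 ± 33.6 in Z138, 242 ± 17.1 in HBL-2, 90.7 ± 7.07 in REC-1 and 83.5 ± 5.76 in JEKO-1 (SD, n = 6 each). REC-1 and JEKO-1 did not differ (adjusted p = 0.2, limma). TAP2 stood at 555 ± 42.2 in GRANTA-519, 367 ± 18.6 in HBL-2, 216 ± 16.6 in Z138, 125 ± 5.54 in REC-1 and 71.0 ± 6.73 in JEKO-1 (SD, n = 6 each), and all neighbours differed on this probe set. REC-1 was 1.77-fold above JEKO-1 (adjusted p = 1.2e-17, limma). With the mean of the 4 TAP2 probe sets, Z138 was no longer above REC-1 (log2 difference -0.21, adjusted p = 0.25), and GRANTA-519 and HBL-2 did not differ (adjusted p = 0.26, limma).

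Tapasin, TAPBP, had a narrow range of 2.06-fold. Its control means were 598 ± 46.8 in GRANTA-519, 517 ± 18.7 in REC-1, 455 ± 49.2 in HBL-2, 330 ± 22.8 in Z138 and 290.1 ± 22.7 in JEKO-1 (SD, n = 6 each). REC-1 was thus above 3 of the other lines, 1.57-fold above Z138 (adjusted p = 4.1e-12, limma). Its call over HBL-2 (adjusted p = 0.017) was lost without the third PBS array of HBL-2 (0.076, limma). The call of Z138 over JEKO-1 (adjusted p = 0.02) was lost without the first PBS array of Z138 (0.076), the third isotype array of JEKO-1 (0.091) or its first PBS array (0.059, limma). With the mean of probe sets Z138 was no longer above JEKO-1 (log2 difference -0.13, adjusted p = 0.52), nor was the call of HBL-2 over JEKO-1 kept (0.12, limma).

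**Figure D2:**
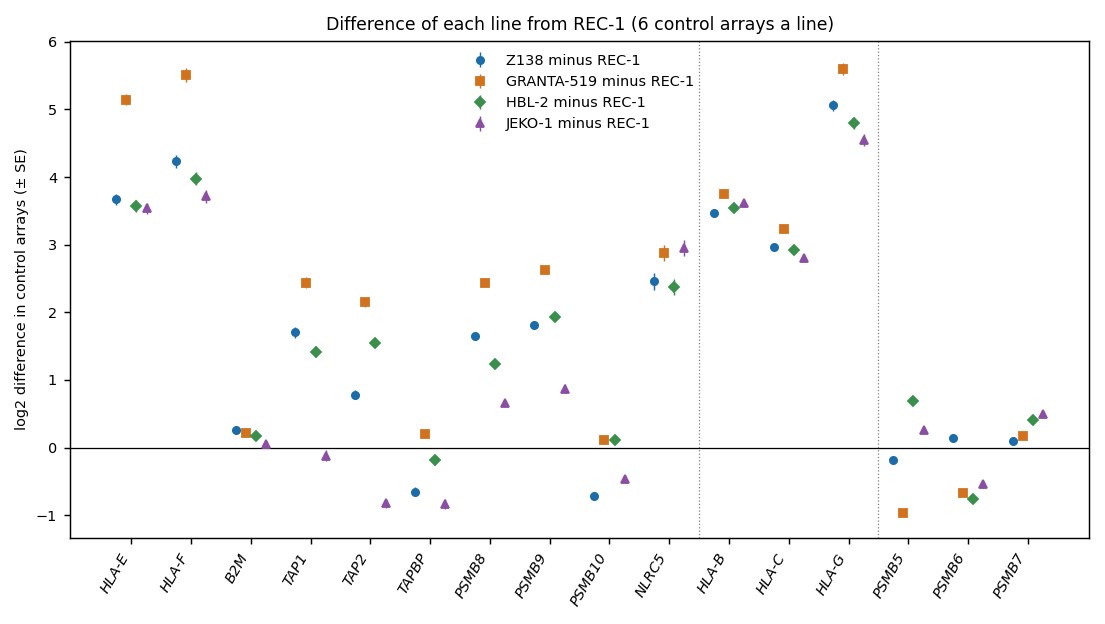
Difference of each of 4 lines from REC-1 in control arrays (log2 scale, points ± SE, 6 arrays a line), for the 10 members, then HLA-B, HLA-C and HLA-G, then PSMB5, PSMB6 and PSMB7. HLA-E and HLA-F lie from 3.54 to 5.51 above REC-1 in each line, B2M at most 0.26 above it, and PSMB6 below it in 3 of 4 lines.

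Of 12 regulators other than NLRC5 in the list, 4 were lower in REC-1 than in each other line: RFX5, RFXAP, CREB1 and IRF1. RFX5, the DNA-binding subunit of the RFX complex, had a control mean of 560.1 in REC-1 and 807 to 1010 in the other lines. RFXAP, another RFX subunit, stood at 234 in REC-1 and at 331 to 816 elsewhere. IRF1, an interferon-induced transcription factor, stood at 95 in REC-1 and 112 to 252 elsewhere. The differences from REC-1 were 1.44-fold to 1.8-fold for RFX5, 1.42-fold to 3.51-fold for RFXAP and 1.18-fold to 2.67-fold for IRF1. They were 1.17-fold to 2.55-fold for CREB1, a factor that binds cyclic AMP response elements. CIITA, the class II transactivator, had its lowest mean in GRANTA-519 (35.7) and read 46.4 in REC-1. Of 5 genes of interferon gamma signalling, SOCS1, a feedback inhibitor, was lower in REC-1 than in each other line, at 10.9 against 26.5 to 109, and its REC-1 mean is under the filter intensity. IFNGR1, a chain of the interferon gamma receptor, had its highest mean in REC-1, at 1822 against 185 to 1248 elsewhere. Of 6 genes of loading and trimming, TAPBPL (30.3 against 57.2 to 162) and ERAP2 (84.9 against 190.4 to 1177) were lowest in REC-1. None of the 3 constitutive catalytic subunits was called lower in REC-1 than in each other line, although PSMB7 had its lowest mean there.

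Across the 25 group means, which share 5 lines and so are not independent, the log2 levels of several pairs of members rose and fell together. Pearson's r was 0.995 for HLA-E with HLA-F, 0.953 for HLA-E with NLRC5 and 0.942 for HLA-F with NLRC5. It was 0.97 for PSMB8 with PSMB9 and 0.951 for TAP1 with PSMB8. Values between these pairs were high too, with 0.918 for HLA-F with PSMB9 and 0.905 for HLA-F with PSMB8. The lowest was -0.255, for TAPBP with NLRC5. After each line's mean was removed, r for PSMB8 with PSMB9 was 0.712, that for HLA-E with HLA-F 0.393, that for HLA-E with NLRC5 0.221 and that for TAP1 with PSMB8 -0.048. The other genes closest to a member over the 25 group means were HLA-J for HLA-E (r = 0.995) and for HLA-F (0.997), HEIH for NLRC5 (0.99), LHFPL2 for TAP2 (0.988), SKAP1 for PSMB8 (0.987), ST14 for PSMB10 (0.987), ANXA4 for TAP1 (0.984), RIPK2 for TAPBP (0.981), CKAP4 for PSMB9 (0.98) and PSMB4 for B2M (0.928). HLA-J is a class I pseudogene, and its probe set may bind heavy chain transcripts, which was not tested.

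Antibody treatment moved few of these genes, and by little. Averaged over the 5 lines, with 15 arrays an arm, TAP1 rose with GA101 and with rituximab against isotype, and NLRC5 was higher with the combination. On the probe sets used, the other 8 members passed in none of these 3 comparisons, while B2M probe set 201891_s_at read lower in all 3. The count was 1 of 10 members with GA101, where 18.2% of all genes passed, 1 of 10 with rituximab (20.7%) and 1 of 10 with the combination (17.4%), and these shares are no higher than the background. The median log2 change of the members was 0.02 with GA101, -0.03 with rituximab and 0.01 with the combination, and that of all genes tested 0.02, 0.02 and 0.02. The 3 comparisons share their 15 isotype arrays.

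TAP1 encodes a subunit of the peptide transporter, and its mean was higher than with isotype in every line with each antibody. In JEKO-1 the intensities were 111, 111 and 114 with GA101, against 82.3, 92.9 and 77.7 with isotype and 77.6, 84.5 and 86.0 with PBS. Every GA101 array of JEKO-1 was above every control array, while rituximab arrays read 109, 92.7 and 98.5 and overlapped the isotype arrays. In Z138, rituximab arrays read 417, 353 and 353 and isotype arrays 329.8, 311 and 264, without overlap. GA101 arrays of Z138 read 354, 331 and 258, of which the lowest was below every isotype array. In HBL-2, GA101 arrays read 275, 251 and 259.9 and isotype arrays 245, 237 and 219, while the PBS arrays reached 271. Rituximab arrays of HBL-2 read 257, 252 and 234 and overlapped the isotype arrays.
In GRANTA-519, rituximab arrays read 605, 631 and 485 against 536, 555 and 429 with isotype, so that the groups overlapped, as did the GA101 arrays at 589, 585 and 531. In REC-1 rituximab arrays read 116, 92.0 and 97.7 against 90.9, 91.7 and 78.3, with GA101 arrays at 99.1, 96.4 and 92.4, and the highest PBS array there was 98.3. Over all lines the log2 change was 0.19 ± 0.0504 (SE; adjusted p = 0.0039, limma, higher in 5 of 5 lines) with GA101 and 0.21 ± 0.0504 (adjusted p = 0.0011, higher in 5 of 5 lines) with rituximab. These are rises of 1.14-fold and 1.16-fold. With the combination the change was 0.13 ± 0.0504 and did not pass in the main fit (adjusted p = 0.062, limma). It passed in a fit with a term for the replicate number (adjusted p = 0.0069) and with that term within each line (0.0013, limma). It also passed in 8 of 75 fits that each left out 1 array, with adjusted p of 0.028 to 0.049 (limma). The arrays were the third combination array of Z138, GRANTA-519, HBL-2 or REC-1, the third GA101 array of Z138, the first isotype array of Z138, and the second isotype array of GRANTA-519 or JEKO-1.

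Against PBS the TAP1 change was 0.18 with GA101 (adjusted p = 0.015) and 0.19 with rituximab (adjusted p = 0.005, limma), the only members called in those comparisons, where 10.6% and 12.1% of all genes passed. With quantile normalization the GA101 call was lost (0.16, adjusted p = 0.052, limma). Against PBS the combination called 0 of 10 members, with 8.54% of all genes called and 1 member at an unadjusted p under 0.05 (limma). TAP1 passed there (0.12) with a term for the replicate number (adjusted p = 0.032) and with that term within each line (0.0089, limma). Isotype and PBS differed for 0 of 10 members (6.46% of all genes), with HLA-F at an unadjusted p under 0.05 (limma).

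NLRC5 with the combination had a log2 change of 0.23 ± 0.0764 over all lines (SE; adjusted p = 0.027, limma, higher in 4 of 5 lines). It did not pass against PBS (0.12, adjusted p = 0.4, limma). The call rested on single arrays: it was lost without the second isotype array of HBL-2 (adjusted p = 0.069), without the second isotype array of REC-1 (0.091) or without the first combination array of JEKO-1 (0.051, limma). It was also lost with quantile normalization (0.22, adjusted p = 0.058, limma).

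**Figure D3:**
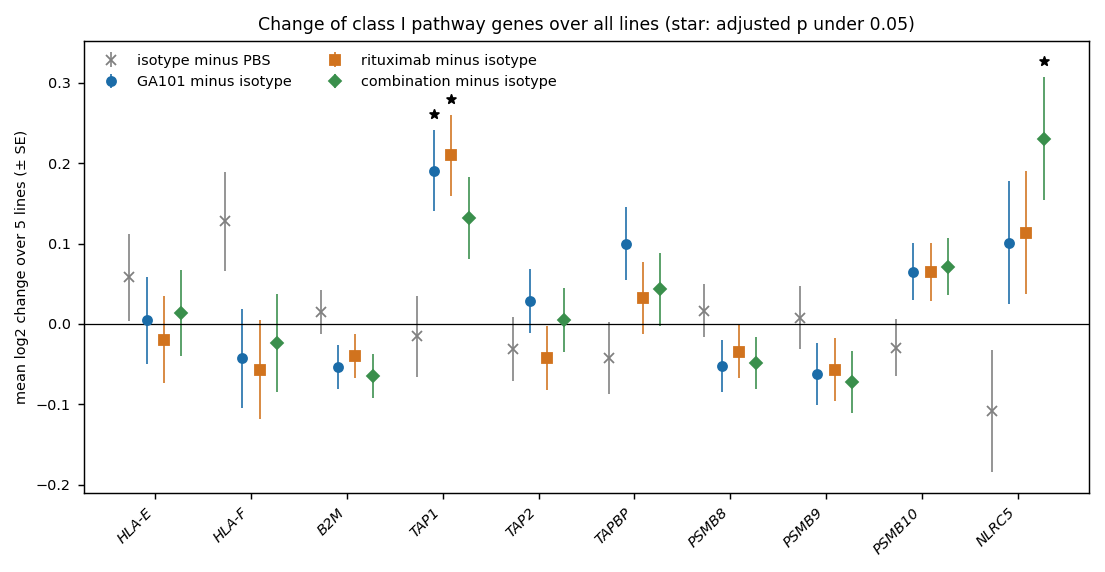
Mean log2 change of each member over the 5 lines (points ± SE, 15 arrays an arm) for GA101, rituximab and the combination against isotype and for isotype against PBS; a star marks an adjusted p under 0.05. TAP1 carries stars at 0.19 and 0.21, NLRC5 at 0.23, and the other members lie between -0.07 and 0.13.

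On the probe sets used, the heavy chain and light chain genes did not pass over all lines. HLA-E changed by 0.00 with GA101, by -0.02 with rituximab and by 0.01 with the combination, and HLA-F by -0.04, -0.06 and -0.02. The 95% intervals of these 6 changes lay between -0.18 and 0.122 on the log2 scale. B2M changed by -0.05, -0.04 and -0.06 on the probe set used, with the lowest adjusted p at 0.1 (limma), that of the combination, which passed without the first combination array of Z138 (adjusted p = 0.046, limma). Its probe set 201891_s_at, in a fit of all probe sets, read lower in the same 3 comparisons by -0.11 (adjusted p = 0.00023), -0.08 (0.0046) and -0.07 (0.017), and against PBS by -0.11, -0.08 and -0.07 (adjusted p = 7e-04, 0.0098 and 0.035, limma). The first 2 were lower in 5 of 5 lines against isotype. So these 2 probe sets had 1 sign and differed in call, with falls of at most 1.08-fold on 201891_s_at. The third B2M probe set, 232311_at, changed by 0.16, -0.12 and -0.08 with the same 3 arms against isotype (SE 0.296 each), with adjusted p of 0.82, 0.87 and 0.92 (limma).

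The immunoproteasome and loading genes moved as little over all lines. PSMB8 changed by -0.05, -0.03 and -0.05 and PSMB9 by -0.06, -0.06 and -0.07 with GA101, rituximab and the combination. PSMB10 changed by 0.07, 0.06 and 0.07, TAP2 by 0.03, -0.04 and 0.00 and TAPBP by 0.10, 0.03 and 0.04. None of these 15 changes passed in the main fit, and the smallest adjusted p was 0.12 (TAPBP with GA101, limma). With a term for the replicate number within each line, PSMB10 passed with GA101 (adjusted p = 0.04), rituximab (0.038) and the combination (0.023, limma). With that term shared by the lines, PSMB10 passed only with the combination (0.04, limma). With the mean of probe sets, TAPBP was called with rituximab (0.34, adjusted p = 0.018, limma). In the fit of all probe sets, TAPBP probe set 210294_at read higher with rituximab by 0.89 ± 0.314 (log2, SE; adjusted p = 0.041, limma), at line medians of 3.79 to 21.6, which are near or under the filter intensity.

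GA101 and rituximab were compared directly. Over all lines 0 of 10 members differed between them by limma, where 2.24% of all genes did, and 0 members had an unadjusted p under 0.05. The 95% intervals of the 10 differences lay between -0.165 and 0.157 on the log2 scale. A larger difference in the mean over lines, on the probe sets used, is outside them for every member. Intervals within single lines were wider, from -0.576 (in HBL-2) to 0.471 (in Z138). Within single lines 0 of 50 pairs of a member and a line differed, against 1.44% of all such pairs. The largest was TAP2 in JEKO-1, 0.28 higher with GA101 than with rituximab (adjusted p = 0.19, limma).

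Within lines, few pairs passed. GA101 against isotype called 3 of 50 pairs (7.61% of all pairs of a gene and a line), rituximab 2 of 50 (7.85%) and the combination 1 of 50 (6.45%). Against PBS the counts were 2 of 50 (4.54%), 1 of 50 (4.28%) and 0 of 50 (3.49%), and isotype against PBS gave 0 of 50 (1.35%). Each share is below its background, and GRANTA-519 and Z138 held none of these pairs.

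TAP1 in JEKO-1 rose with GA101 by 0.42 ± 0.113 against isotype (log2, SE; adjusted p = 0.011) and by 0.44 ± 0.113 against PBS (adjusted p = 0.012, limma), which are 1.33-fold and 1.36-fold. Without the third isotype array the first call was lost (adjusted p = 0.094), as was the second without the first PBS array (0.068, limma). Both were lost with quantile normalization (adjusted p = 0.067 and 0.099, limma). In the same line rituximab changed TAP1 by 0.25 and the combination by 0.20, and neither passed.

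TAP2, the partner of TAP1, fell in JEKO-1 with rituximab. The arrays read 57.1, 59.7 and 45.05 with rituximab, 75.1, 71.4 and 57.5 with isotype, and 73.6, 73.7 and 74.5 with PBS. The rituximab arrays were below all PBS arrays, and overlapped the isotype arrays. The log2 change was -0.33 ± 0.0898 against isotype (SE; adjusted p = 0.011) and -0.46 ± 0.0898 against PBS (adjusted p = 0.00039, limma). The call against isotype was lost without the third rituximab array (adjusted p = 0.22) and without the first (0.12) or second (0.073) isotype array. With the mean of the TAP2 probe sets neither call was kept (adjusted p = 0.32 and 0.87, limma). TAP2 changes with rituximab in the other lines were 0.17 in GRANTA-519, 0.15 in Z138, -0.08 in REC-1 and -0.12 in HBL-2, and an F test found the rituximab response to differ between lines (adjusted p = 0.012, limma). That test did not pass with quantile normalization (0.064) or with the mean of probe sets (0.29, limma).

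NLRC5 was higher in HBL-2 with antibody than with isotype. Rituximab arrays read 188, 197 and 185, combination arrays 183, 181 and 186, and GA101 arrays 154, 144 and 192, while isotype arrays read 127, 90.2 and 132. All antibody arrays were above all isotype arrays. The log2 changes were 0.73 ± 0.171 with rituximab (adjusted p = 0.0018), 0.68 ± 0.171 with the combination (0.0046) and 0.50 ± 0.171 with GA101 (0.075, limma), the last not past the threshold.
The PBS arrays of HBL-2 read 172, 167 and 126, and the isotype arrays lay 0.42 below them on the log2 scale (adjusted p = 0.33, limma). Against PBS none of the 3 passed, with changes of 0.31, 0.26 and 0.07. Without the second isotype array, the one at 90.2, neither the rituximab nor the combination call remained (adjusted p = 0.051 and 0.097, limma). An F test found the NLRC5 response to rituximab to differ between lines (adjusted p = 0.023, limma); its changes were -0.28 in REC-1, -0.04 in JEKO-1, 0.07 in Z138 and 0.08 in GRANTA-519. It did not pass with quantile normalization (adjusted p = 0.081, limma).

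In REC-1, the line lowest in PSMB8 and PSMB9 but not in PSMB10, PSMB8 and PSMB9 fell with GA101. PSMB8 arrays read 262, 229 and 234 with GA101, 314, 311 and 249 with isotype, and 303, 291 and 302 with PBS. The GA101 arrays were below all PBS arrays and overlapped the isotype arrays at 249. The log2 change was -0.26 ± 0.0731 against isotype (SE; adjusted p = 0.0096) and -0.31 ± 0.0731 against PBS (adjusted p = 0.0025, limma).
PSMB9 arrays read 172, 194 and 207 with GA101, 246, 228 and 217 with isotype, and 235, 221 and 197 with PBS. They were below every isotype array, but not below every PBS array. The change was -0.27 ± 0.0869 against isotype (adjusted p = 0.027) and -0.19 ± 0.0869 against PBS (adjusted p = 0.18, limma). The isotype calls of both genes were lost without the second GA101 array or without the first or second isotype array, with adjusted p of 0.074 to 0.1 for PSMB8 and 0.056 to 0.15 for PSMB9. That of PSMB9 was also lost without the first GA101 array (0.22) and with quantile normalization (0.088, limma). Rituximab and combination means were below isotype too, at 258.5 and 268 against 291 for PSMB8, and 197 and 200.1 against 230 for PSMB9. Neither arm called any member in REC-1 (lowest adjusted p of 0.14 and 0.21, limma). GA101 and rituximab did not differ there for any member (lowest adjusted p = 0.61, limma).

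F tests of whether a response differed between lines called 0 of 10 members for GA101 (14.1% of all genes), 2 of 10 for rituximab (11.5%), TAP2 and NLRC5, and 0 of 10 for the combination (10.2%). With GA101, 4 members had an unadjusted p under 0.05 (B2M, TAP2, PSMB8 and NLRC5), and with the combination 2 did (PSMB9 and NLRC5, limma). In the main fit, the rises and falls in JEKO-1, HBL-2 and REC-1 with GA101 are therefore not shown to be particular to those lines. Single arrays bore on these counts: with GA101 the test passed for HLA-F without the second GA101 array of REC-1 (adjusted p = 0.017), for TAP2 without the third isotype array of JEKO-1 (0.043), for PSMB8 without the third isotype array of REC-1 (0.0082) and for NLRC5 without its second (0.0045, limma). With rituximab it passed for PSMB8 without the third isotype array of REC-1 (0.02, limma). A term for the replicate number bore on them too. With GA101, PSMB8 passed with that term (adjusted p = 0.018) and with it within each line (0.02, limma). PSMB9 passed with GA101 only with the term within each line (0.049, limma). PSMB8 with rituximab (0.028 and 0.031) and PSMB9 with the combination (0.028 and 0.021, limma) passed with either term.

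**Figure D4:**
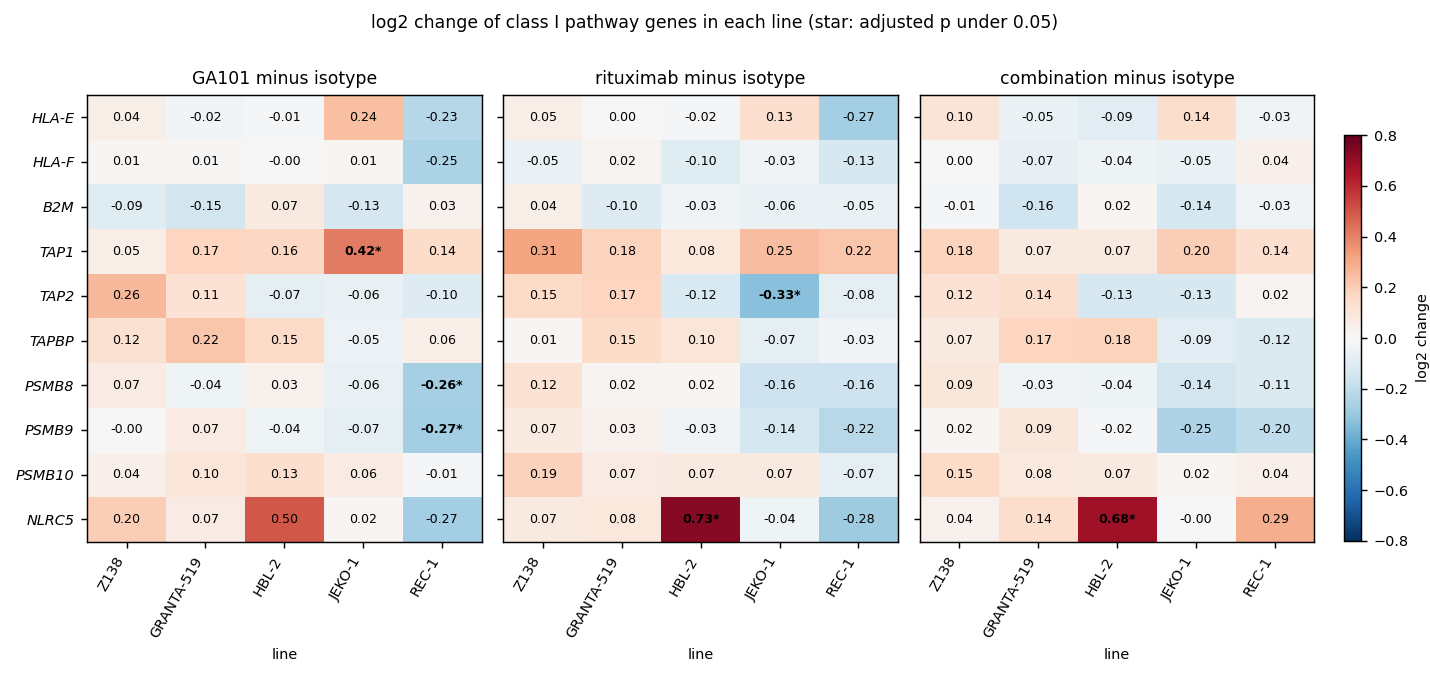
Log2 change of each member (rows) in each line (columns) for GA101, rituximab and the combination against isotype, 3 arrays a group; a star marks an adjusted p under 0.05. The 6 starred cells are TAP1 in JEKO-1 (0.42) and PSMB8 and PSMB9 in REC-1 (-0.26 and -0.27) with GA101, TAP2 in JEKO-1 (-0.33) and NLRC5 in HBL-2 (0.73) with rituximab, and NLRC5 in HBL-2 (0.68) with the combination.

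**Figure D5:**
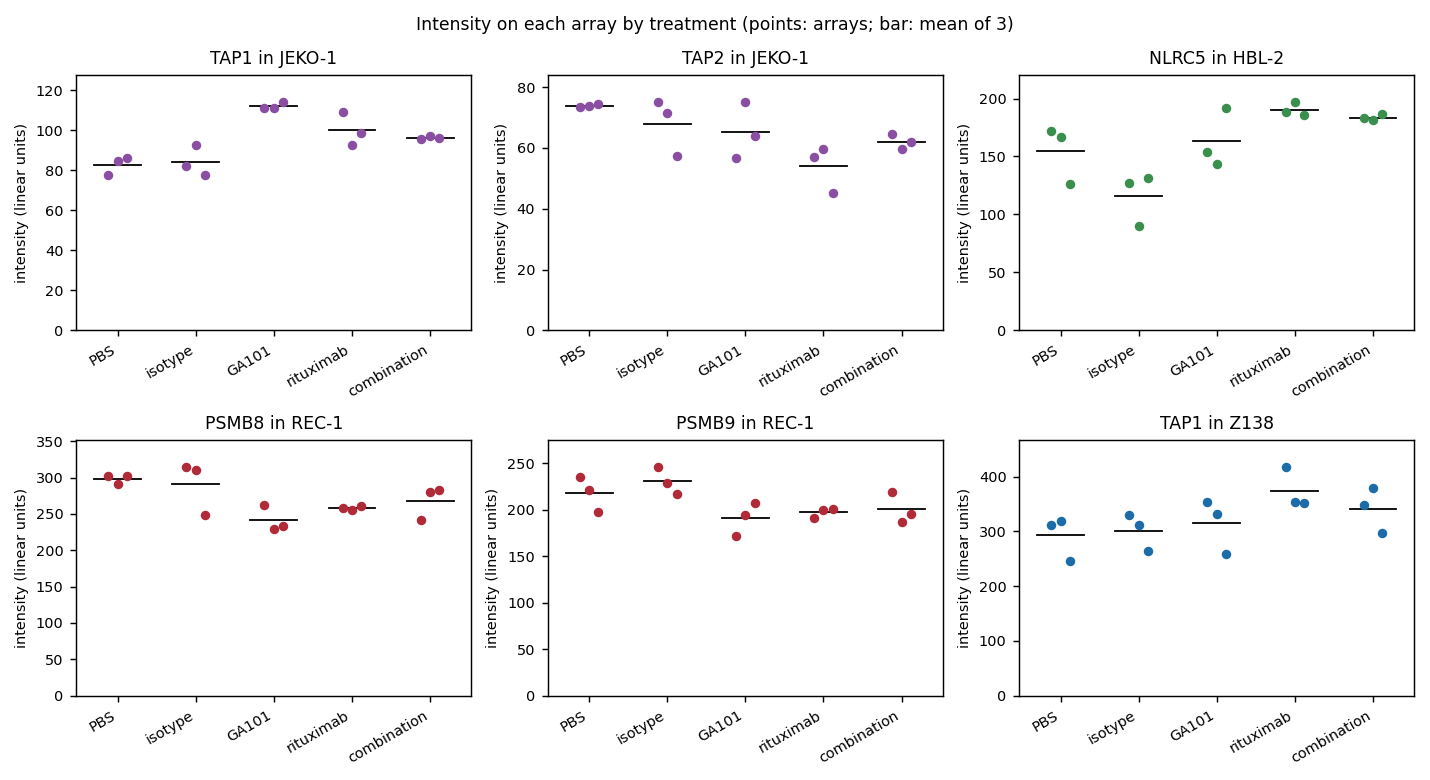
Intensity (linear units, axis from 0) on each of 3 arrays by treatment, with the mean as a bar, for the called pairs of a gene and a line and for TAP1 in Z138. GA101 arrays of TAP1 in JEKO-1 (111 to 114) lie above all controls, and the isotype array of NLRC5 in HBL-2 at 90.2 lies below the other arrays of its panel.

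Of the 31 other genes of the pathway, over all lines 6 rose and 4 fell with GA101 against isotype, where 12.5% and 5.78% of all genes did, 5 rose and 4 fell with rituximab (13.8% and 6.9%), and 4 rose and 4 fell with the combination (11.4% and 6.01%). The heavy chains HLA-B, HLA-C and HLA-G passed in none of these 3.

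PSMB5, the constitutive subunit that PSMB8 replaces, rose in all 5 lines in each comparison, by 0.14, 0.12 and 0.12 with GA101, rituximab and the combination (adjusted p = 9.2e-05, 0.00063 and 0.00046, limma). Against PBS it passed in none of the 3. RFX5 and JAK1, the latter a kinase of the interferon receptors, rose against isotype too, by 0.18, 0.15 and 0.15 and by 0.18, 0.12 and 0.13. Both were lower with isotype than with PBS, by -0.18 for RFX5 (adjusted p = 1e-05) and -0.12 for JAK1 (adjusted p = 0.00097, limma), and passed in no comparison of an antibody with PBS. RFXAP fell in all 5 lines against isotype, by -0.33, -0.40 and -0.35 (adjusted p = 2.2e-07, 1.3e-09 and 5.4e-08, limma), and fell against PBS as well, by -0.19, -0.26 and -0.21.

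NFKB1, an NF-kB subunit gene, differed between the antibodies in the mean over lines. It rose with GA101 against isotype by 0.17 and fell with rituximab and the combination by -0.12 and -0.15. GA101 was above rituximab by 0.29 ± 0.0312 (SE; adjusted p = 2e-09, limma, higher in 4 of 5 lines), and no other of the 31 genes differed in that mean. Within lines, GA101 was above rituximab for NFKB1 in REC-1 (0.62, adjusted p = 4.1e-09) and JEKO-1 (0.45, adjusted p = 0.00011) and for NFYA, a subunit of the CCAAT-binding factor NF-Y, in Z138 (0.25, adjusted p = 0.011, limma). It was below rituximab for CALR, the chaperone calreticulin, in HBL-2 (-0.23, adjusted p = 0.026) and for ERAP2 in REC-1 (-0.47, adjusted p = 0.021, limma). RFXANK, the other RFX subunit, rose with rituximab by 0.18 (adjusted p = 0.026, limma). IRF2, a factor that binds interferon response elements, rose with rituximab by 0.25 and with the combination by 0.23, and ERAP2, an aminopeptidase that trims peptides, fell with GA101 by -0.20 (adjusted p = 0.0054, limma).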

How the data were processed

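RNA of 75 samples was labelled as biotinylated cRNA and hybridized to 3' expression arrays, per the labels' protocols. The authors deposited intensity values on a linear scale, made with MAS5 per the submitters' processing notes; its version and settings were not given in the sources used here. Intensities below 1 were raised to 1 before taking log2, and arrays were not normalized further. To pass, a probe set needed a mean log2 value in 1 line or more (15 arrays each) above the median of all 54675 probe sets (intensity 11.7). Each gene was read from its brightest probe set among 41091 with 1 symbol, which gave 13870 genes.

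limma 3.58.1 in R 4.3.3 fitted 25 group means (50 residual degrees of freedom) with an intensity trend. Two-sided p-values were adjusted over all genes (Benjamini-Hochberg), with a threshold of 0.05. Control means pool isotype and PBS arrays. A second fit held all probe sets. The code was tested on simulated data. The rule for named genes took every member, up to 4 genes of the pathway list with the largest called change in a comparison, and the genes with the highest r; PSMB5 and the pathway genes named for levels in REC-1 were chosen after their values were seen. The members and lists were chosen with earlier results of these data known. Other fits used a replicate block, quantile normalization, no filter, the mean of probe sets, a floor or an offset of 16, no intensity trend, or 1 array fewer.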

Additional observations from a re-analysis of the deposited data

Results flagged for a closer look

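TAP2 and NLRC5 differed between lines in their response to rituximab, by a moderated F test over the 5 lines (limma, adjusted p = 0.012 for TAP2 and 0.023 for NLRC5), the only members that did. TAP2 changed by -0.33 in JEKO-1 and by 0.17 in GRANTA-519. NLRC5 changed by 0.73 in HBL-2 and by -0.28 in REC-1. The TAP2 result was lost without the third rituximab array (adjusted p = 0.063) or the first isotype array (0.052) of JEKO-1. That of NLRC5 was lost without the first or second rituximab array of HBL-2 (0.051 and 0.066), its second isotype array (0.15) or the third rituximab array of REC-1 (0.056, limma). With quantile normalization neither passed (adjusted p = 0.064 for TAP2 and 0.081 for NLRC5), and with the mean of probe sets TAP2 did not (0.29) while NLRC5 did (0.035, limma).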

How the results depend on the processing

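The 10 of 10 members that differed between lines in controls did so in every leave-one-out fit, and no other fit listed here moved that count. Results for single members numbered 229 (every comparison over or between lines, and the pairs called within lines). With direction unchanged, 10 lost their call and 3 gained one with the mean of probe sets, and 8 and 3 with quantile normalization. The count was 0 with no filter, no intensity trend, or a floor or offset of 16. Direction turned in 3 more, all differences between control means. B2M, Z138 against GRANTA-519, gained a call with quantile normalization (-0.0757, adjusted p = 0.00028, limma). With the mean of probe sets 2 lost their call. These were TAP2, Z138 against REC-1 (-0.21, adjusted p = 0.25), and TAPBP, Z138 against JEKO-1 (-0.13, adjusted p = 0.52, limma). Over all lines, quantile normalization left 0 members called for the combination against isotype and 0 for GA101 against PBS, and the mean of probe sets gave 2 for rituximab against isotype. Within lines, quantile normalization gave 1 pair for GA101 against isotype, 2 for the combination against isotype, 1 for GA101, 2 for rituximab and 1 for the combination against PBS. An offset of 16 gave 5 pairs for GA101 against isotype and 2 for rituximab against PBS, a floor of 16 gave 2 for the latter, and the mean of probe sets 0. For the difference of the rituximab response between lines, quantile normalization gave 0 and the mean of probe sets 1. The causes were not tested. The mean of probe sets also lowered the calls over all genes for GA101 against isotype from 2529 to 1690.

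Replicate numbers are shared in the labels. Arrays of 1 line with the same number had deviations that correlated at -0.0812 to 0.122, with a median of 0.0269. For arrays of 1 line with different numbers the median was -0.0147. Between arrays of different lines the median was 0.0229 with the same number and -0.0127 with different numbers. Of 15 arrays a line, 3 of REC-1, 12 of JEKO-1, 13 of HBL-2 and 14 each of GRANTA-519 and Z138 correlated best with their own number. The arrays thus went by number in part, outside REC-1 above all. The labels do not say what the number marks, and the main fit has no term for it. With a replicate block, or with a block within each line, the counts over all lines were 1 and 2 for GA101 against isotype, 1 and 2 for rituximab, 3 and 3 for the combination, and 1 and 1 for the combination against PBS. Within lines they were 6 and 7 for rituximab against isotype, 2 and 4 for the combination, 4 and 5 for rituximab against PBS and 2 and 2 for the combination against PBS, and the block within lines gave 1 for GA101 against rituximab. For responses that differ between lines they were 1 and 2 with GA101 and 1 and 1 with the combination. Of the results for single members that could be fitted, 229 and 119, no call was lost with either block, and 9 were gained with each. Over all genes, the calls for GA101 against isotype went from 2529 to 2945 and 2991.

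Leaving out 1 array at a time gave, over all lines, 1 to 1 members for GA101 and for rituximab against isotype, 0 to 2 for the combination, 1 to 2 for GA101 and 1 to 1 for rituximab against PBS, and 0 to 0 for the combination against PBS, GA101 against rituximab and isotype against PBS. Within lines it gave 1 to 4 pairs for GA101 against isotype, 1 to 3 for rituximab, 0 to 1 for the combination, 1 to 3, 1 to 2 and 0 to 2 for the same arms against PBS, 0 to 1 for GA101 against rituximab and 0 to 0 for isotype against PBS. Responses that differ between lines numbered 0 to 1 with GA101, 1 to 3 with rituximab and 0 to 0 with the combination. With 3 arrays a group, the size of change at the edge of the calls depended on the gene. With GA101 against isotype, PSMB9 in REC-1 was called at -0.27 on the log2 scale, and NLRC5 in HBL-2 was not at 0.50.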
